A study of Homo sapiens with 12 samples.

Results

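Cells nucleofected with a non-targeting control siRNA were set beside cells that received nothing. Both were of Granta 519, an established human cell line of mantle cell lymphoma (MCL). The arrays were chosen by their labels alone: 8 of the 12 arrays of the series, 4 of control siRNA and 4 of untreated cells, compared over all 33297 probe sets of the Affymetrix Human Gene ST array. For each transfection 4000000 cells were placed in 100 µl of nucleofector solution with 100 pmol of control siRNA and given an electroporation program, and total RNA was taken 20 hours later. The other 4 arrays, of cells given the same amount of an siRNA against SOX11, share the line, the nucleofection and the harvest with the control siRNA group. No group of electroporated cells without siRNA was analysed here, so the electric pulse, the solution, the siRNA and the handling cannot be told apart. Cell number and time of harvest are not recorded for the untreated cells, so differences in culture cannot be told apart from these either. All cells are of 1 line, and the labels speak of individual transfection experiments for the RNA but do not say how the untreated cultures were kept separate. The p-values therefore measure the spread between these arrays.

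Nucleofection opens pores in the plasma membrane and the nuclear envelope with an electric pulse, so that nucleic acids enter with the pulse while ions, and calcium above all, leak along their gradients. Cells close such wounds with calcium-binding proteins of the annexin and S100 families, with calpain proteases and with the giant scaffold protein AHNAK. Electroporated cells are also known to meet oxidative, protein-folding and DNA damage stress, and double-stranded RNA in the cytoplasm can be read by sensors that start the interferon response. A control siRNA has no intended target but occupies the RNA silencing machinery like any other.

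SOX11, the transcription factor that the series silenced, was at 1028, 978, 978 and 1041 on the untreated arrays and 1096, 1191, 1112 and 1026 on the control siRNA arrays (log2 fold change 0.13, SE 0.0893, adjusted p = 0.758 from limma). The groups overlapped. On the SOX11 siRNA arrays its signal was 188 to 229. Of the defining B cell markers, CD79A was at 1390 to 1624 untreated and 1246 to 1625 after control siRNA, CD79B at 569.5 to 679 untreated and 501 to 655 after control siRNA, MS4A1 (CD20) at 4147 to 5071 untreated and 4143 to 4838 after control siRNA and PAX5 at 834 to 901 untreated and 820.2 to 939 after control siRNA, and each of these ranges overlapped. Of the other measured defining markers, CD72 overlapped too, BLNK was at 1438 to 1532 untreated and 1134 to 1381 after control siRNA, lower without overlap but not called (-0.27, adjusted p = 0.461), and CD22 was called lower (-0.53, adjusted p = 0.0169). CCND1, the cyclin D1 gene that MCL cells overexpress, was at 3223 to 3567 untreated and 2935 to 3443 after control siRNA, which also overlapped. SOX4, a close relative of SOX11, was at 124 to 149 untreated and 108 to 127 after control siRNA, overlapping again (-0.17, adjusted p = 0.66). The median signal per array lay between 74.8 and 90.4 among these 8 arrays, and Pearson's r between arrays, over all probe sets, was 0.991 to 0.995 within the untreated group, 0.993 to 0.995 within the control siRNA group and 0.990 to 0.994 between them, so no array stood apart by this measure. Signals are in PLIER units, which have a true zero but differ in scale from gene to gene, and the fold changes below are differences of log2(signal + 16), which makes those of dim genes smaller.

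At an adjusted p under 0.05 over all probe sets, 57 of 33297 probe sets were called higher after control siRNA (0.171%) and 72 were called lower (0.216%). On each of these 129 probe sets the 4 control siRNA arrays lay beyond all 4 untreated arrays. Over all probe sets the groups did not overlap, with control siRNA higher, for 2.11%, and with control siRNA lower for 5.85%. An unadjusted p under 0.05 was reached with higher values by 2.18% and with lower values by 6.39% of all probe sets, and the counts of list members below are to be read against these shares. A change of at least 1.5-fold was reached by 41 of the higher and 44 of the lower calls, and at the stricter threshold of the study's methods, an FDR of 0.002 with 1.5-fold, 9 were higher and 4 lower. Of the calls, 48 higher and 45 lower probe sets list 1 gene symbol, and the others list several or none. The median log2 fold change of all probe sets was -0.06, and 68% of probe sets lay below 0. With the arrays brought to 1 distribution by quantile normalization the counts were 352 higher and 292 lower, and with each array centred on its median they were 126 and 56, so the split between higher and lower calls depends on the scaling. Median centring kept 57 of the 57 higher and 49 of the 72 lower calls, log2(value + 1) kept 33 and 29, and the methods' analysis of variance kept 23 and 15 with 3 groups and 2 and 2 with 2 groups. In all 12 fits that each left out 1 array, 29 of the 57 higher and 25 of the 72 lower calls remained. The counts of those fits ran from 33 (without control siRNA replicate 2) to 90 higher and from 29 (without control siRNA replicate 4) to 142 lower, both highest without SOX11 siRNA replicate 3, and at the stricter threshold from 1 to 8 higher and from 0 to 5 lower.

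**Figure D1:**
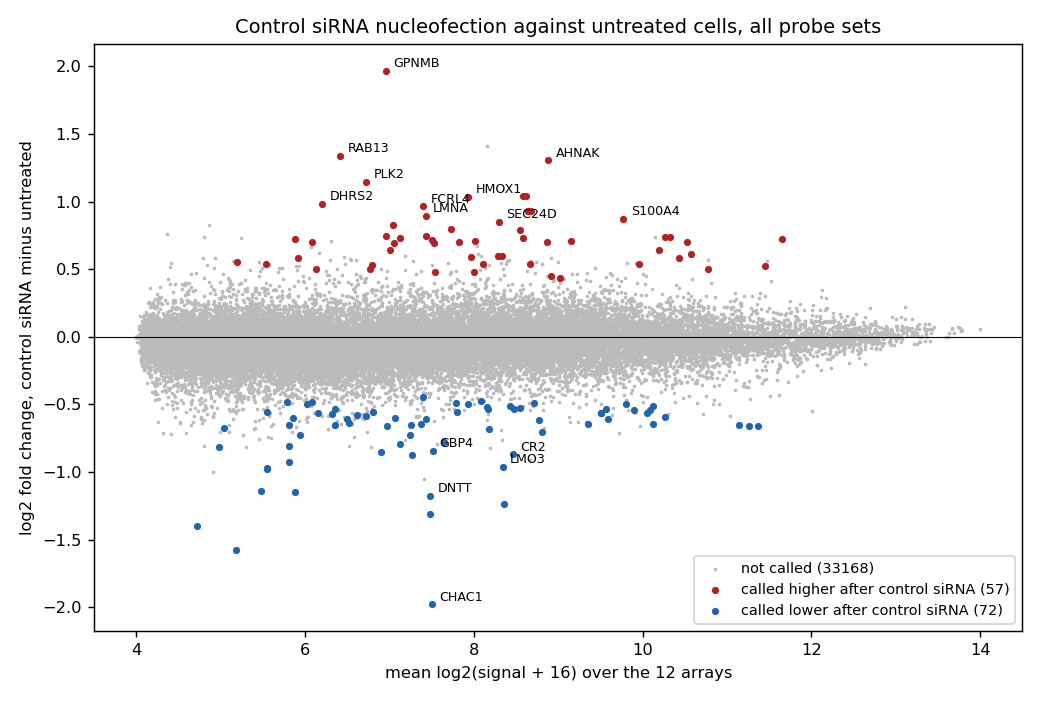
Log2 fold change of control siRNA minus untreated (y axis) against the mean log2(signal + 16) over the 12 arrays (x axis) for all 33297 probe sets, with the 57 called higher in red and the 72 called lower in blue. GPNMB at 1.97 and CHAC1 at -1.98 lie farthest from 0 among the labelled genes, and unlabelled blue points below -1 are probe sets that list no gene symbol.

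The gene with the largest increase was GPNMB, which encodes a membrane glycoprotein of melanosomes and lysosomes. Its signal was 22.4, 28.5, 41.1 and 38.6 on the untreated arrays and 164, 178, 215 and 139 on the control siRNA arrays. The groups were far apart, with the dimmest control siRNA array at 139 and the brightest untreated array at 41.1 (log2 fold change 1.97, SE 0.141, adjusted p = 1.21e-05 from limma, 3.91-fold on the log2(signal + 16) scale). It was also the call with the smallest adjusted p. RAB13, a small GTPase of vesicle traffic and cell junctions, had 39.6, 26.8, 22.8 and 26.2 on the untreated arrays and 101, 90.4, 111 and 84 on the control siRNA arrays (log2 fold change 1.34, SE 0.135, adjusted p = 0.00045). AHNAK had 274, 291, 199 and 185 on the untreated arrays and 567, 646, 562 and 624 on the control siRNA arrays (log2 fold change 1.30, SE 0.184, adjusted p = 0.00467). Its untreated arrays fell into a brighter pair, replicates 1 and 2, and a dimmer pair, replicates 3 and 4, and all 4 control siRNA arrays lay well above both. The untreated arrays of many other named genes split into the same pairs, with either pair the brighter. Among them were GPNMB, CHAC1, HSPA5, PLK2, GBP4, CAPN2, S100A10, TIMP1, CR2, SCD, FADS2, GATM and CD200. Those of others, such as HMOX1 and ANXA2, did not. The labels do not say how these cultures were kept separate, and the cause of the split was not tested.

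Of all the lists, that of annexins, S100 proteins and membrane repair genes held the most higher calls. The lists were chosen with earlier results of these data known, so this count is not independent of them. Of 30 measured members of the list, 9 were called higher and 0 lower, against 0.171% of all probe sets called higher. Those were AHNAK, LMNA, S100A4, CAPN2, ANXA2, S100A6, LGALS1, S100A10 and S100A11. LMNA and LGALS1 encode neither annexins nor S100 proteins, and LMNA is counted in the nuclear envelope list as well. The other 21 members did not pass, and the median of the list, 0.05, was close to the -0.06 of all probe sets, so the increase was that of particular members. S100A4, a calcium-binding protein of motile cells, was at 594, 584, 518 and 553 on the untreated arrays and 1087, 1166, 973 and 947 on the control siRNA arrays (log2 fold change 0.87, SE 0.107, adjusted p = 0.00172). S100A6, another small calcium binder, was at 239.7, 201, 205 and 212 on the untreated arrays and 323, 337, 332 and 335 on the control siRNA arrays (log2 fold change 0.60, SE 0.085, adjusted p = 0.00467). The 4 control siRNA arrays of S100A6 were nearly level. ANXA2, which encodes annexin A2, was at 1140, 1004, 1016 and 985 on the untreated arrays and 1663, 1871, 1646 and 1581 on the control siRNA arrays (log2 fold change 0.70, SE 0.0924, adjusted p = 0.00253). S100A10, the partner with which annexin A2 forms a tetramer, was at 1277 to 1505 on the untreated arrays and 1794 to 2176 on the control siRNA arrays (log2 fold change 0.50, SE 0.097, adjusted p = 0.0363), and S100A11, the partner of annexin A1, at 325 to 377 on the untreated arrays and 475 to 514 on the control siRNA arrays (log2 fold change 0.45, SE 0.0915, adjusted p = 0.0496). Both of these calls were near the threshold. That of S100A10 ended without untreated replicate 1, 2, 3 or 4 or control siRNA replicate 1, 2 or 3, with an adjusted p of up to 0.142 (control siRNA replicate 3 left out), and that of S100A11 without untreated replicate 1, 2, 3 or 4 or control siRNA replicate 1, 2, 3 or 4 or SOX11 siRNA replicate 1 or 2, with up to 0.161 (untreated replicate 2 left out). LGALS1, which encodes galectin-1, a secreted sugar-binding protein, was at 2024 to 2273 on the untreated arrays and 2587 to 3271 on the control siRNA arrays (log2 fold change 0.52, SE 0.102, adjusted p = 0.0382) and lost its call without untreated replicate 1, 2, 3 or 4 or control siRNA replicate 1, 2 or 3, with up to 0.128 (control siRNA replicate 3 left out). Without 1 array the list had 6 to 9 higher calls, and with quantile normalization 11. The processed pseudogenes ANXA2P1 and ANXA2P2 were also called higher (0.53, adjusted p = 0.0145, and 0.64, adjusted p = 0.0104). They are near-identical copies of ANXA2, and their probe sets may read its transcripts.

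CAPN2, the large subunit of the calcium-activated protease calpain-2, was at 122, 120.1, 140.2 and 137 on the untreated arrays and 206, 249, 245 and 249 on the control siRNA arrays (log2 fold change 0.80, SE 0.102, adjusted p = 0.00217). The lowest of the 4 control siRNA arrays was replicate 1, and it lay above every untreated array. LMNA, which encodes lamins A and C of the nuclear lamina, was at 88.2, 79.9, 93.9 and 102 on the untreated arrays and 186, 183, 199 and 162 on the control siRNA arrays (log2 fold change 0.90, SE 0.0938, adjusted p = 0.00048). Of 15 measured nuclear envelope genes it was the 1 called, against 0.171% of all probe sets called higher, and the list's median was -0.03. Of further increases outside the lists, 3 were named after their values were seen. EMP3, an epithelial membrane protein family member, was at 718 to 915 on the untreated arrays and 1154 to 1590 on the control siRNA arrays (log2 fold change 0.74, SE 0.119, adjusted p = 0.0104). EHD3, an ATPase that reshapes endosomal membranes, was at 71.8 to 95.3 on the untreated arrays and 122 to 152 on the control siRNA arrays (log2 fold change 0.64, SE 0.0993, adjusted p = 0.00776). TIMP1, a secreted inhibitor of matrix metalloproteinases, was at 218 to 259.6 on the untreated arrays and 377 to 431 on the control siRNA arrays (log2 fold change 0.73, SE 0.0968, adjusted p = 0.00253). In each of these 3 genes the calls remained in all 12 fits that left out 1 array.

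Of the called genes of the membrane repair list, ANXA2 and CAPN2 hold the motif TGANTCA in the promoter. It is a loose form of the AP-1 site of FOS and JUN dimers, with any base at N. The TGAATCA of HSPA5 was therefore counted like the TGAGTCA of ANXA2, and the shares below are those of the loose motif. The motif was searched on both strands, where it reads alike, in windows of 250 bases before to 50 after the start of transcription. LGALS1 matched no such window and was not searched. Of the called genes with 1 symbol, 37 of 48 higher and 39 of 45 lower ones matched such a window by symbol. Among the 37 it was found in 6 (16.2%), among the 39 in 0, and among all 35093 windows in 7.71%. Here and below, called genes and lists have 1 window per gene, while the 35093 keep every distinct window of a gene. The 6 genes were ANXA2, HSPA5, SERPINB8, CAPN2, FCRL4 and GPNMB. Beside this motif and those given below, the CCAAT box, TATA box, E-box, M-box, E2F, CRE, SRE, HSE and ARE motifs were searched. The antioxidant response element ARE, TGACNNNGC, was in 5.41% of the higher, 23.1% of the lower and 13.4% of all windows. These shares were not tested, and neither was a part of AP-1 in the changes. The 200 bases before the start of ANXA2, on the minus strand at chr15:60397987-60398186 of GRCh38.p14 (RefSeq), are shown with the AP-1 letters in capitals.
ANXA2: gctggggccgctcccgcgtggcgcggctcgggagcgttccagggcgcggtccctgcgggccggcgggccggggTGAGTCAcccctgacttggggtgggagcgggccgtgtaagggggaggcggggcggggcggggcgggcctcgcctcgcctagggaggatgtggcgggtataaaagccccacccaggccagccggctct
The match begins 127 bases before the start. JUN itself, a subunit of AP-1, was called higher, with 107, 105, 117 and 132 on the untreated arrays and 198, 213, 212 and 163 on the control siRNA arrays (log2 fold change 0.69, SE 0.104, adjusted p = 0.00634). Of 25 measured immediate early genes JUN was the 1 called higher, against 0.171% of all probe sets, and 0 were called lower, with a median of 0.09, and 14 lay above 0. IER5 and ZFP36, among the other members with the smallest p, had log2 fold changes of 0.33, adjusted p = 0.38, and 0.31, adjusted p = 0.354. Of 14 MAPK feedback genes, the inhibitors that such signalling induces, DUSP5 was the 1 called, against 0.171% of all probe sets called higher. DUSP5, a nuclear phosphatase of ERK, was at 193, 175, 157 and 167 on the untreated arrays and 316, 298, 294 and 266 on the control siRNA arrays (log2 fold change 0.71, SE 0.1, adjusted p = 0.00456).

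**Figure D2:**
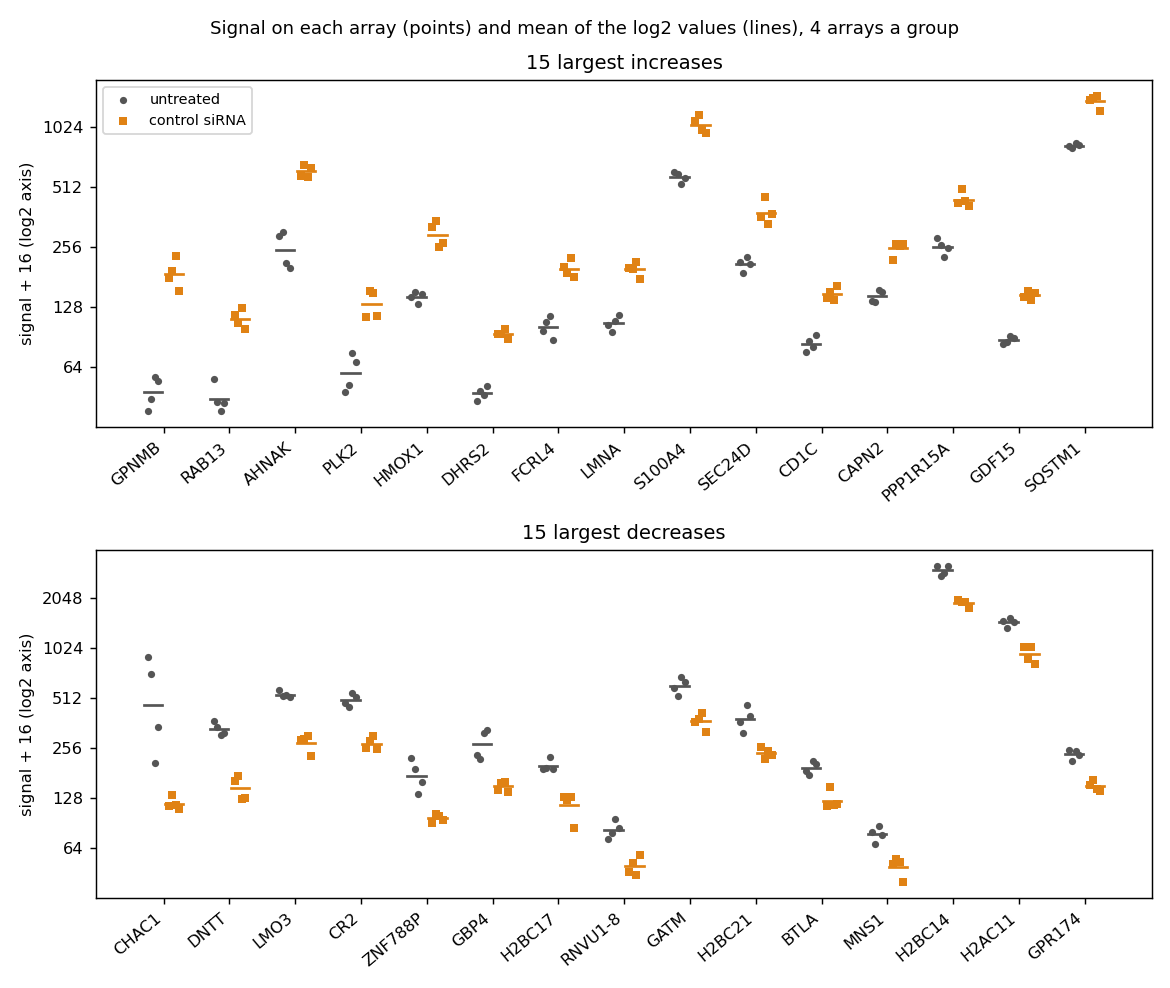
Signal + 16 on each array (points, log2 axis) for the 15 genes with the largest increases and the 15 with the largest decreases, with lines at the mean of the 4 log2 values; gray circles are untreated arrays and orange squares control siRNA arrays. The groups do not overlap in any of the 30 genes, and CHAC1 has the widest spread among its untreated arrays.

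The antioxidant genes changed in part. Of 24 measured NRF2 target and antioxidant genes 3 were called higher, against 0.171% of all probe sets, and 0 lower, while the list's median was -0.02. HMOX1, the heme oxygenase that cells induce under oxidative and heme stress, was at 129, 137, 118 and 133 on the untreated arrays and 306, 329.9, 242 and 254 on the control siRNA arrays (log2 fold change 1.03, SE 0.116, adjusted p = 0.00091). SQSTM1, which encodes the autophagy receptor p62, was at 812, 786, 836 and 819 on the untreated arrays and 1388, 1426, 1462 and 1215 on the control siRNA arrays (log2 fold change 0.74, SE 0.0984, adjusted p = 0.00253). NQO1, a quinone reductase and classical NRF2 target, was at 184 to 194 on the untreated arrays and 251 to 300 on the control siRNA arrays (log2 fold change 0.54, SE 0.106, adjusted p = 0.0387). The call of NQO1 ended without untreated replicate 1, 2, 3 or 4 or control siRNA replicate 1, 2, 3 or 4, with an adjusted p of up to 0.131 (control siRNA replicate 2 left out). Of 39 lysosome and TFEB-family genes GPNMB was the 1 called, against 0.171% of all probe sets called higher, with a list median of 0.04. The sialidase gene NEU1 had 330 to 416 on the untreated arrays and 420.5 to 601 on the control siRNA arrays and missed the threshold (0.56, adjusted p = 0.121). The metallothionein MT2A, a metal-binding protein, was at 3329 to 4074 on the untreated arrays and 2298 to 3058 on the control siRNA arrays (-0.43, adjusted p = 0.221), though its probe set may also bind transcripts of its near-identical relatives. Of 18 measured genes of metallothioneins and zinc transport 0 were called by limma while 8 had an unadjusted p under 0.05, 3 of them with higher and 5 with lower values. DHRS2, a reductase of the short-chain dehydrogenase family, was at 31.6 ± 3.63 untreated and 78 ± 4.54 after control siRNA (SD, n = 4 each) (log2 fold change 0.98, SE 0.115, adjusted p = 0.00128).

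The endoplasmic reticulum chaperones HSPA5 and HYOU1 were called higher. Of 24 measured genes of the unfolded protein response these 2 were called higher, against 0.171% of all probe sets, and 0 lower. Of the list 21 lay above 0, and 11 of those had an unadjusted p under 0.05, against 2.18% of all probe sets. Their median log2 fold change was 0.23 against -0.06 over all probe sets. HSPA5, which encodes BiP, the main chaperone of the endoplasmic reticulum, was at 1997, 1955, 2579 and 2397 on the untreated arrays and 3298, 4382, 3647 and 3419 on the control siRNA arrays (log2 fold change 0.72, SE 0.12, adjusted p = 0.0117). The highest array was control siRNA replicate 2. HYOU1, a chaperone of the same compartment, was at 970.2, 934, 1071 and 1149 on the untreated arrays and 1441, 1813, 1479 and 1487 on the control siRNA arrays (log2 fold change 0.58, SE 0.118, adjusted p = 0.0452). Neither call remained in every fit that left out 1 array. That of HSPA5 ended without untreated replicate 1 or 2, with an adjusted p of up to 0.0532 (untreated replicate 1 left out), and that of HYOU1 ended in 11 of the 12 fits that left out 1 array, the exception being the one without SOX11 siRNA replicate 3, with up to 0.15 (untreated replicate 1 left out). With log2(value + 1) both calls ended (adjusted p = 0.058 and 0.125), as they did in the 3-group analysis of variance (0.086 and 0.16). The list had 0 to 5 higher calls without 1 array, 0 with log2(value + 1) or analysis of variance, 6 with median centring and 10 with quantile normalization. MANF and DNAJB9, further targets of the response, had log2 fold changes of 0.56, adjusted p = 0.0566, and 0.56, adjusted p = 0.0662. SEC24D, a coat protein of the vesicles that leave the endoplasmic reticulum, was at 200.1, 174, 212 and 196 on the untreated arrays and 349, 444, 318 and 358 on the control siRNA arrays (log2 fold change 0.85, SE 0.139, adjusted p = 0.0104), and its call ended with log2(value + 1) (0.0541) and in the 3-group analysis of variance (0.101). FKBP11, a folding enzyme of secretory cells, was at 157 to 212 on the untreated arrays and 258 to 324 on the control siRNA arrays (0.59, adjusted p = 0.0527) and missed the threshold.

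The endoplasmic reticulum stress element (ERSE), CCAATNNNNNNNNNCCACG, was found on either strand in the windows of 6 of 23 genes of the list with a window (26.1%) and in 0.0769% of all windows. Its first letters are also a CCAAT box, which 34.6% of all windows hold. HSPA5 is shown because it is the textbook carrier of the element and was called higher. The 200 bases before its start lie on the minus strand at chr9:125241344-125241543 of GRCh38.p14, with the element, which begins 66 bases before the start, in capitals.
HSPA5: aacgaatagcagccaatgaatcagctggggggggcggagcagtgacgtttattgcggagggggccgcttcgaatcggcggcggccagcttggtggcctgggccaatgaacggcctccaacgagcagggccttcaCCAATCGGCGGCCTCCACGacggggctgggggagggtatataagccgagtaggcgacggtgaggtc
A match of letters is a description of the window and not evidence of binding.

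Of 25 measured members of the integrated stress response 1 was called higher and 1 lower, against 0.171% and 0.216% of all probe sets. At an unadjusted p under 0.05, 2 had higher and 11 lower values, against 2.18% and 6.39% of all probe sets, 19 lay below 0, and the median was -0.28. PPP1R15A, which encodes GADD34, the phosphatase subunit that restores translation, rose with 269.6, 247, 213 and 238 on the untreated arrays and 412, 485, 423 and 396 on the control siRNA arrays (log2 fold change 0.79, SE 0.113, adjusted p = 0.00468). CHAC1, a glutathione-degrading enzyme and ATF4 target, had the largest fall of any named gene, with 886, 703, 192 and 329 on the untreated arrays and 98.9, 117, 99.6 and 93.7 on the control siRNA arrays (log2 fold change -1.98, SE 0.323, adjusted p = 0.0104). The untreated arrays were spread from 192 (replicate 3) to 886 (replicate 1), while the control siRNA arrays were alike. The call remained in all 12 fits that left out 1 array and ended with a trend and robust prior for the spread (adjusted p = 0.0594), with log2(value + 1) (0.0596) and in the analysis of variance with 3 groups (0.163) and with 2 (0.243). The same 2 untreated arrays, replicates 1 and 2, were the brightest for DDIT4 and VEGFA, stress-induced genes that missed the threshold. DDIT4 was at 929.9, 646, 392 and 466 on the untreated arrays and 305, 343, 334 and 230.5 on the control siRNA arrays (-0.91, adjusted p = 0.113). VEGFA was at 299, 260.2, 160.2 and 196 on the untreated arrays and 129, 159, 130.2 and 141 on the control siRNA arrays (-0.62, adjusted p = 0.146). ALDH1L2, a mitochondrial folate enzyme and member of the list, had a log2 fold change in the other direction (0.57, adjusted p = 0.0838).

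Of 20 measured cytosolic heat shock genes with 1 symbol 0 were called by limma, and 2 had an unadjusted p under 0.05. DNAJB1, a co-chaperone of HSP70, was at 557, 628, 949 and 832 on the untreated arrays and 1058, 1210, 1093 and 931 on the control siRNA arrays (0.55, adjusted p = 0.168), with overlapping groups. The HSP70 genes HSPA1A and HSPA1B are near-identical, and all 5 probe sets called for them list both, so the reading cannot be assigned to either gene. Named after their values were seen, these had log2 fold changes of 0.93 to 1.04, with adjusted p values from 0.00607 to 0.0104. On the probe set with the largest change the signal was 168, 192, 267 and 250.3 on the untreated arrays and 444, 559.7, 449.5 and 402 on the control siRNA arrays.

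Of 26 measured p53 target genes 2 were called higher, against 0.171% of all probe sets, and 0 lower. Of the list 20 lay above 0 and 10 of those had an unadjusted p under 0.05, against 2.18% of all probe sets, with a median of 0.16. The other 6 lay below 0, down to -0.77, and 1 of the list had lower values at an unadjusted p under 0.05. PLK2, a polo-like kinase induced by stress, was at 32.1, 36.1, 59.5 and 52.1 on the untreated arrays and 98.5, 138, 135 and 100.3 on the control siRNA arrays (log2 fold change 1.14, SE 0.148, adjusted p = 0.00232). GDF15, a secreted stress cytokine, was at 68.3, 70.2, 76.3 and 73.3 on the untreated arrays and 129, 138, 124 and 135 on the control siRNA arrays (log2 fold change 0.74, SE 0.0899, adjusted p = 0.00154). The groups did not overlap on either gene, and those of GDF15 were the tighter. The call of PLK2 ended in the 3-group analysis of variance (0.0584). GADD45A, a sensor of stress and DNA damage, was at 285 to 429 on the untreated arrays and 490.1 to 602 on the control siRNA arrays (0.58, adjusted p = 0.0758), and the phosphatase gene PPM1D, which turns p53 signalling down, was at 404 to 449 on the untreated arrays and 541 to 642 on the control siRNA arrays (0.42, adjusted p = 0.104). Both missed the threshold. Several genes that no list holds rose as well and were named after their values were seen. UPP1, uridine phosphorylase, was at 21.4 to 31.5 on the untreated arrays and 46.3 to 54 on the control siRNA arrays (log2 fold change 0.72, SE 0.0968, adjusted p = 0.0026). SERPINB8, an inhibitor of serine proteases, was at 84 to 93 on the untreated arrays and 138 to 168 on the control siRNA arrays (log2 fold change 0.73, SE 0.0909, adjusted p = 0.00184), and SLC41A2, a magnesium transporter, at 130.4 to 152 on the untreated arrays and 218 to 274 on the control siRNA arrays (log2 fold change 0.70, SE 0.106, adjusted p = 0.00634).

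**Figure D3:**
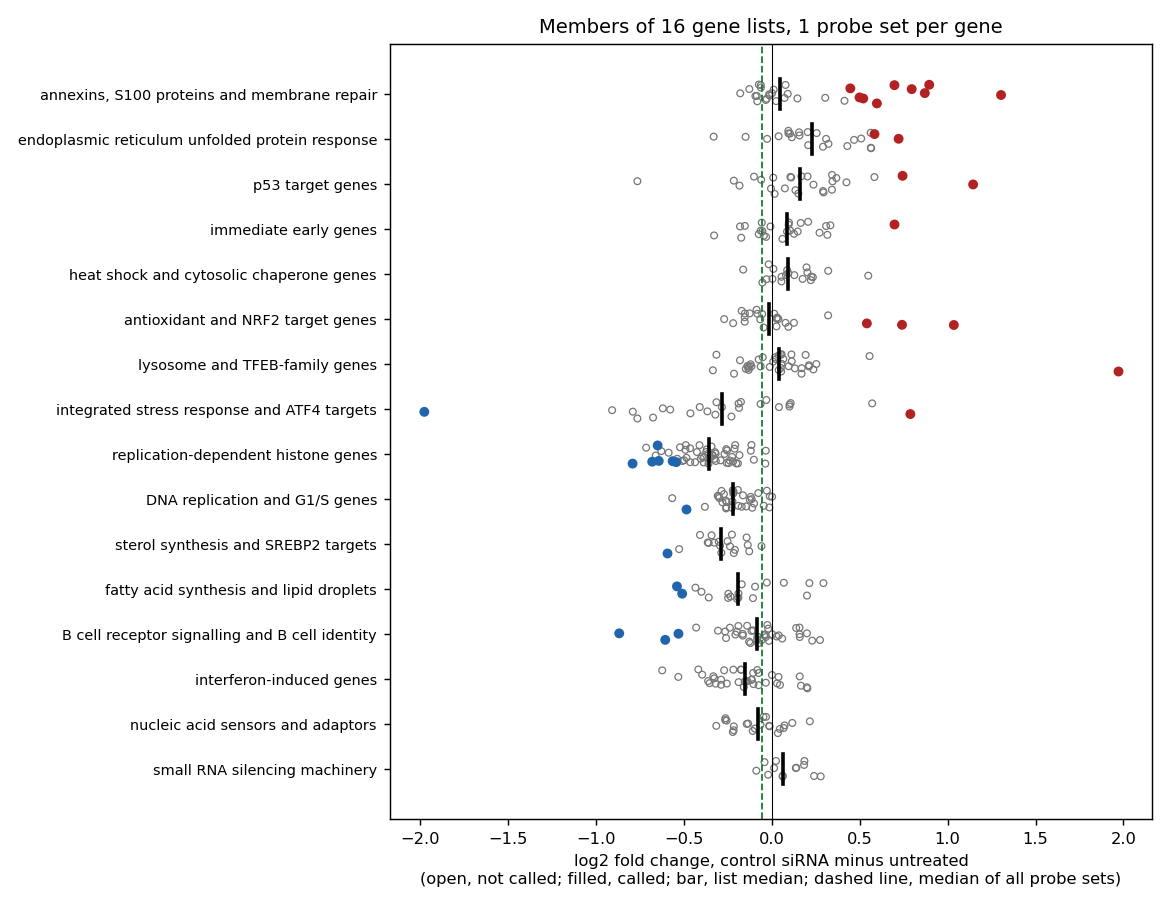
Log2 fold change of each measured member of 16 gene lists (x axis), 1 probe set per gene; filled points were called, open points were not, black bars are list medians and the dashed line is the median of all probe sets at -0.06. The 9 called members of the membrane repair list lie to the right of a cluster of members near 0, while all 57 histone genes lie to the left of 0.

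The most uniform change was that of the replication-dependent histone genes, whose transcripts are made in S phase and end in a stem-loop instead of a poly(A) tail. All 57 measured genes lay below 0, the median was -0.36 against -0.06 over all probe sets, and 43 had an unadjusted p under 0.05. Of the 57, 6 were called lower and 0 higher, against 0.216% of all probe sets called lower. The medians by class were -0.25 for 6 genes of linker histone H1, -0.38 for 14 of H2A, -0.44 for 16 of H2B, -0.41 for 8 of H3 and -0.34 for 13 of H4. The called genes with 1 symbol were of H2A (2) and H2B (4). Among H4 genes, 2 probe sets that each list both H4C14 and H4C15, and therefore are not among the 57, were also called lower. They hold the same values, 820, 773, 1012 and 1095 on the untreated arrays and 558, 644, 611 and 642 on the control siRNA arrays (log2 fold change -0.57, SE 0.114, adjusted p = 0.0435). H2BC14 was at 3177, 2755, 2874 and 3186 on the untreated arrays and 1976, 1938, 1934 and 1763 on the control siRNA arrays (log2 fold change -0.65, SE 0.0923, adjusted p = 0.00467). H2AC11 was at 1468, 1347, 1542 and 1448 on the untreated arrays and 1017, 864, 1019 and 807 on the control siRNA arrays (log2 fold change -0.64, SE 0.103, adjusted p = 0.00987). The 4 control siRNA arrays lay below all untreated arrays by a wide gap in both, and both calls remained in all 12 fits that left out 1 array. H2BC17 had 175, 178, 210.4 and 175 on the untreated arrays and 114, 108, 115 and 68.7 on the control siRNA arrays (log2 fold change -0.79, SE 0.152, adjusted p = 0.0332), where untreated replicate 3 stood above and control siRNA replicate 4 below the rest of their groups. The calls of H2BC17, H2BC21 (-0.68, adjusted p = 0.0339), H2AC15 (-0.56, adjusted p = 0.0393) and H2BC8 (-0.54, adjusted p = 0.0496) ended in 8, 7, 7 and 8 of those fits, each of which left out an untreated or a control siRNA array except 1 for H2BC8 that left out SOX11 siRNA replicate 1, with adjusted p of up to 0.108 (untreated replicate 3 left out), 0.126 (control siRNA replicate 2 left out), 0.132 (control siRNA replicate 4 left out) and 0.17 (control siRNA replicate 4 left out). The list had 2 to 6 lower calls without 1 array, 24 with quantile normalization and 3 with median centring, where H2BC17 (adjusted p = 0.0616), H2BC21 (0.111), H2AC15 (0.115) and H2BC8 (0.159) were not called, and 56 and 55 of its genes stayed below 0 under these scalings. Histone genes are near-identical within a class, and their probe sets may share transcripts, so the 57 values are not independent.

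**Figure D4:**
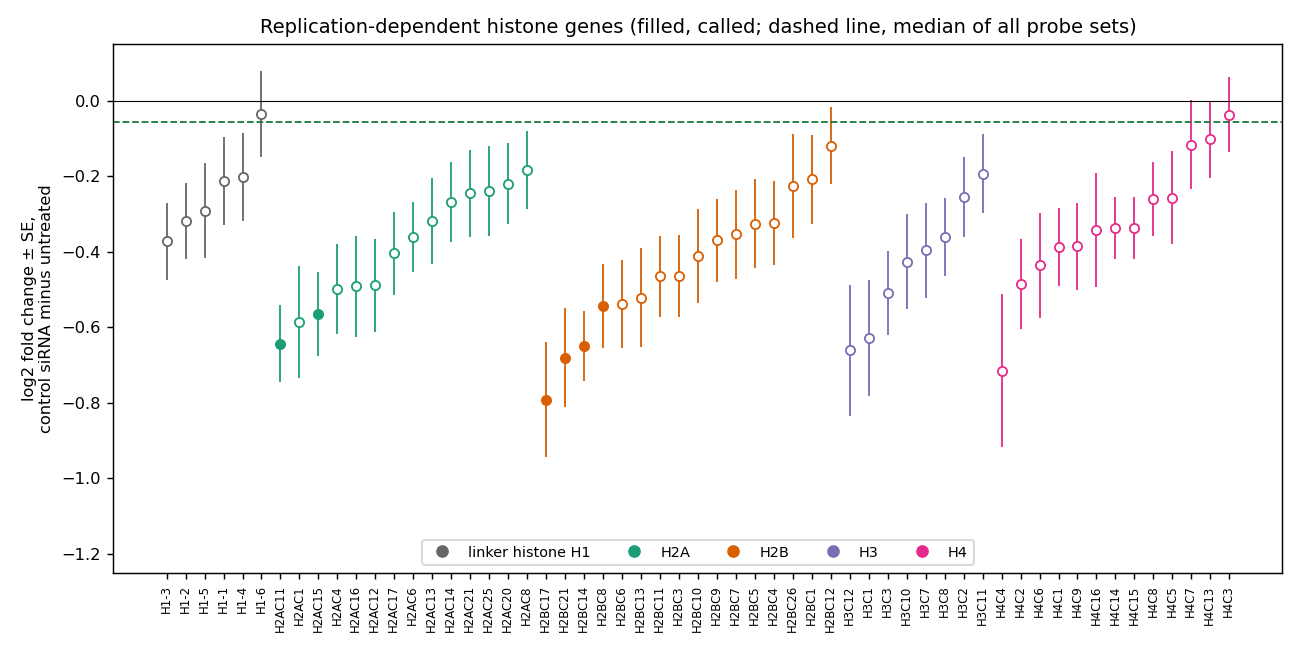
Log2 fold change of control siRNA minus untreated with its SE (y axis) for 57 replication-dependent histone genes, coloured by class and sorted within it; filled points were called and the dashed line is the median of all probe sets. Every point lies below 0, from -0.79 (H2BC17) to -0.03 (H1-6).

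H2B promoters are known for an octamer, ATTTGCAT, which binds OCT1 and drives their S-phase expression. Searched on both strands, it was found in 13 of 16 windows of H2B genes (81.2%), in 44.2% of 52 windows of all the histone genes and in 1.77% of all windows. H2BC14 is shown as the called H2B gene whose call remained in all 12 fits that left out 1 array. Its 200 bases before the start lie on the plus strand at chr6:27814822-27815021 of GRCh38.p14, with the octamer, which begins 48 bases before the start, in capitals.
H2BC14: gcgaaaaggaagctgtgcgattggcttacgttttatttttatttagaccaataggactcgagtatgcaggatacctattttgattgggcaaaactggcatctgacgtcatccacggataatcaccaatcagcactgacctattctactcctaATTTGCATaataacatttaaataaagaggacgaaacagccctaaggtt

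Of 34 measured DNA replication and G1/S genes 1 was called lower, against 0.216% of all probe sets. Below 0 lay 33 of them, against 68% of all probe sets and 28 of them with median centring, and 16 had lower values at an unadjusted p under 0.05, against 6.39%, with a median of -0.22. The called gene was POLD1, the catalytic subunit of DNA polymerase delta, at 261, 245, 245 and 254 on the untreated arrays and 194, 182, 169 and 155 on the control siRNA arrays (log2 fold change -0.49, SE 0.0872, adjusted p = 0.0199). Its call ended without untreated replicate 1, 2, 3 or 4 or control siRNA replicate 3 or 4, with an adjusted p of up to 0.0891 (control siRNA replicate 3 left out). TK1, thymidine kinase, was at 1364, 1192, 1260 and 1092 on the untreated arrays and 979, 816, 881 and 643 on the control siRNA arrays (-0.57, adjusted p = 0.169) with groups that did not overlap. CHAF1B, a subunit of the chaperone that loads histones onto new DNA, was called lower and was named after its values were seen, at 508, 503, 542 and 523 on the untreated arrays and 382, 367, 377 and 337 on the control siRNA arrays (log2 fold change -0.49, SE 0.0823, adjusted p = 0.0128). Its call ended without untreated replicate 3 or 4 or control siRNA replicate 4, with up to 0.0611 (untreated replicate 4 left out), and with median centring (0.0536). Of 34 G2/M and mitosis genes 0 were called by limma and 5 had an unadjusted p under 0.05, all with lower values, with a median of -0.14. Of this list 32 lay below 0, and 26 with median centring. MKI67, the proliferation antigen Ki-67, was at 841 to 1050 on the untreated arrays and 595 to 844 on the control siRNA arrays (-0.44, adjusted p = 0.121), with overlapping groups. In bulk RNA, fewer cells in a phase and less RNA per cell cannot be told apart. WEE1, the kinase that holds cells before mitosis, was called lower (182 to 200 on the untreated arrays and 123 to 146 on the control siRNA arrays; log2 fold change -0.44, SE 0.0905, adjusted p = 0.0489) and was named after its values were seen, but its call remained in 2 of the 12 fits that left out 1 array, those without SOX11 siRNA replicate 2 or 3, and ended in the others with an adjusted p of up to 0.15 (untreated replicate 2 left out) and with median centring (0.131).

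Of 39 measured genes of B cell receptor signalling and identity 3 were called lower, against 0.216% of all probe sets, and 0 higher, with a median of -0.08. CR2, the complement receptor CD21 that lowers the threshold of the B cell receptor, was at 459.9, 434, 534 and 507 on the untreated arrays and 239, 267, 287 and 237 on the control siRNA arrays (log2 fold change -0.87, SE 0.098, adjusted p = 0.00091). CR1, the complement receptor CD35, was at 97.4, 105, 106 and 111 on the untreated arrays and 58.1, 68.5, 61 and 66.5 on the control siRNA arrays (log2 fold change -0.61, SE 0.101, adjusted p = 0.0118), and CD22, an inhibitory lectin of B cells, at 975, 879.9, 934 and 985 on the untreated arrays and 674, 669, 618 and 629.7 on the control siRNA arrays (log2 fold change -0.53, SE 0.0928, adjusted p = 0.0169). The 4 control siRNA arrays lay below every untreated array in all 3 genes. The call of CR1 ended without control siRNA replicate 1 or 3 or untreated replicate 4, with an adjusted p of up to 0.0611 (untreated replicate 4 left out), and that of CD22 without untreated replicate 1, 3 or 4 or control siRNA replicate 3 or 4, with up to 0.0798 (control siRNA replicate 3 left out). Among B cell adaptors and coreceptors that were not called, BLNK was at 1438 to 1532 on the untreated arrays and 1134 to 1381 on the control siRNA arrays (-0.27, adjusted p = 0.461) and CD72 at 418 to 476 on the untreated arrays and 349 to 437 on the control siRNA arrays (-0.21, adjusted p = 0.613). Further called genes, which no list holds, include lymphoid ones. DNTT, the terminal transferase of early lymphoid cells, was at 355, 325, 292 and 298 on the untreated arrays and 147, 159, 111 and 113 on the control siRNA arrays (log2 fold change -1.18, SE 0.153, adjusted p = 0.00232). BTLA, an inhibitory receptor of lymphocytes, was at 169, 160.1, 198 and 189.8 on the untreated arrays and 98.7, 134, 100.0 and 101 on the control siRNA arrays (log2 fold change -0.66, SE 0.112, adjusted p = 0.0146), with control siRNA replicate 2 above the others of its group. Its call ended without control siRNA replicate 1, 3 or 4 or untreated replicate 3 or 4, with up to 0.0682 (untreated replicate 4 left out). GPR174, a receptor of lymphocytes for lysophosphatidylserine, was at 199 to 232 on the untreated arrays and 126 to 147 on the control siRNA arrays (log2 fold change -0.64, SE 0.105, adjusted p = 0.0104). LMO3, a transcription cofactor of the LIM-only family, was at 557, 511, 518 and 501 on the untreated arrays and 270.1, 275, 288 and 214 on the control siRNA arrays (log2 fold change -0.96, SE 0.0986, adjusted p = 0.00045).

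Also outside the lists, FCRL4, an Fc receptor-like protein of tissue memory B cells, was at 81.9, 92.5, 100 and 72 on the untreated arrays and 187, 174, 209 and 166 on the control siRNA arrays (log2 fold change 0.97, SE 0.121, adjusted p = 0.00184). CD1C, which presents lipid antigens, was at 60.5, 70.7, 65.4 and 76.6 on the untreated arrays and 126, 137, 123 and 149 on the control siRNA arrays (log2 fold change 0.83, SE 0.126, adjusted p = 0.00657). Further surface and lymphoid genes were named after their values were seen. CLEC17A, a lectin of germinal centre B cells, was at 369.6 to 425 on the untreated arrays and 521 to 539.9 on the control siRNA arrays (log2 fold change 0.43, SE 0.085, adjusted p = 0.0393), and SERPINA9, a protease inhibitor of germinal centre B cells, at 68.9 to 77.4 on the untreated arrays and 98.2 to 112 on the control siRNA arrays (log2 fold change 0.50, SE 0.093, adjusted p = 0.0279). CD200, an immunosuppressive ligand, was at 322 to 411 on the untreated arrays and 242 to 271 on the control siRNA arrays (log2 fold change -0.54, SE 0.101, adjusted p = 0.0299), and the gene of its receptor, CD200R1, at 87.2 to 109 on the untreated arrays and 52.3 to 65.5 on the control siRNA arrays (log2 fold change -0.64, SE 0.104, adjusted p = 0.0104). PDCD1LG2, which encodes PD-L2, was at 76.4 to 93 on the untreated arrays and 49.2 to 61.7 on the control siRNA arrays (log2 fold change -0.54, SE 0.102, adjusted p = 0.0316), and IL1R2, the decoy receptor of interleukin-1, at 106 to 137 on the untreated arrays and 66.4 to 85.7 on the control siRNA arrays (log2 fold change -0.59, SE 0.106, adjusted p = 0.0211). The call of CD200R1 remained in all 12 fits that left out 1 array. Those of the other 5 genes remained in 4 (CLEC17A), 5 (SERPINA9), 5 (CD200), 5 (PDCD1LG2) and 7 (IL1R2) of them, always with the 4 that left out a SOX11 siRNA array, and the highest adjusted p were 0.15 (untreated replicate 1 left out), 0.112 (control siRNA replicate 3 left out), 0.112 (untreated replicate 4 left out), 0.126 (untreated replicate 1 left out) and 0.0902 (untreated replicate 4 left out). Median centring ended the call of CD200 (adjusted p = 0.0598). Of 33 measured chemokine receptor, integrin and homing genes 0 were called by limma, and 7 had an unadjusted p under 0.05. The smallest p were those of ITGB2, the beta 2 integrin chain, at 179 to 198 on the untreated arrays and 124 to 144 on the control siRNA arrays (-0.45, adjusted p = 0.0566) and CCR10, a homing receptor, at 228 to 273 on the untreated arrays and 134 to 205 on the control siRNA arrays (-0.53, adjusted p = 0.0709). Of 15 plasma cell differentiation genes 0 were called and 5 had an unadjusted p under 0.05.

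Of 19 measured genes of sterol synthesis and SREBP2 targets all 19 lay below 0, against 68% of all probe sets, 13 with an unadjusted p under 0.05, against 6.39%, and the median was -0.29. FDPS, farnesyl diphosphate synthase, was the 1 called lower, against 0.216%, at 1633, 1370, 1663 and 1700 on the untreated arrays and 1057, 1129, 1064 and 932 on the control siRNA arrays (log2 fold change -0.60, SE 0.102, adjusted p = 0.0148). Its call ended without untreated replicate 1, 3 or 4 or control siRNA replicate 3 or 4, with an adjusted p of up to 0.0717 (untreated replicate 4 left out), and with median centring (0.0536), where 18 of the 19 genes lay below 0. The next by p were DHCR7, the last enzyme of cholesterol synthesis, at 882 to 1123 on the untreated arrays and 566 to 755 on the control siRNA arrays (-0.53, adjusted p = 0.0631), and MVK, mevalonate kinase, at 268 to 344 on the untreated arrays and 178 to 246 on the control siRNA arrays (-0.41, adjusted p = 0.312). Of 19 genes of fatty acid synthesis and lipid droplets 2 were called lower, against 0.216% of all probe sets, and 0 higher, with a median of -0.19. Of this list 4 lay above 0 and 15 below, and 8 had lower values at an unadjusted p under 0.05, against 6.39% of all probe sets. SCD, the desaturase that makes oleic acid, was at 1353, 1334, 1605 and 1512 on the untreated arrays and 968, 1057, 1078 and 871 on the control siRNA arrays (log2 fold change -0.54, SE 0.106, adjusted p = 0.0387), and FADS2, the delta-6 desaturase, at 1307, 1236, 1524 and 1584 on the untreated arrays and 946, 1069, 963 and 954 on the control siRNA arrays (log2 fold change -0.51, SE 0.105, adjusted p = 0.0498). On both genes the 4 control siRNA arrays lay below all untreated ones. The call of SCD ended without untreated replicate 1, 2, 3 or 4 or control siRNA replicate 1, 2, 3 or 4, with up to 0.132 (control siRNA replicate 4 left out), and that of FADS2 without untreated replicate 1, 2, 3 or 4 or control siRNA replicate 1, 2, 3 or 4 or SOX11 siRNA replicate 1 or 2, with up to 0.18 (untreated replicate 4 left out). SLC27A2, a fatty acid transport protein named after its values were seen, was at 449 to 548 on the untreated arrays and 306 to 374 on the control siRNA arrays (log2 fold change -0.53, SE 0.101, adjusted p = 0.0317), and its call ended without untreated replicate 1, 2, 3 or 4 or control siRNA replicate 1, 3 or 4, with up to 0.113 (control siRNA replicate 4 left out). Median centring ended the calls of SCD (adjusted p = 0.104), FADS2 (0.0978) and SLC27A2 (0.0707). GATM, the first enzyme of creatine synthesis, was at 573, 513, 666 and 622 on the untreated arrays and 354, 369, 402 and 305 on the control siRNA arrays (log2 fold change -0.71, SE 0.111, adjusted p = 0.00881). Of 20 hypoxia-induced genes and 16 glycolytic enzymes 0 were called by limma, and 4 of each list had lower values at an unadjusted p under 0.05. ALDOC, aldolase C, was at 469.6 to 683 on the untreated arrays and 269 to 482 on the control siRNA arrays (-0.68, adjusted p = 0.115).

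Of 37 measured interferon-induced genes of the list 0 were called in either direction by limma. At an unadjusted p under 0.05, 0 were higher and 11 lower, against 2.18% and 6.39% of all probe sets, 29 lay below 0, against 68%, and the median was -0.15. IFIT1, which binds viral RNA and is among the strongest interferon targets, was at 108, 88.6, 89 and 88.4 on the untreated arrays and 59.5, 69.9, 41 and 52.2 on the control siRNA arrays (log2 fold change -0.62, SE 0.129, adjusted p = 0.0522). Every control siRNA array lay below every untreated one, and the difference missed the threshold. IFI35 was at 171 to 189 on the untreated arrays and 95.3 to 136 on the control siRNA arrays (-0.53, adjusted p = 0.0924) and LGALS3BP, a secreted glycoprotein, at 325 to 386 on the untreated arrays and 241 to 286 on the control siRNA arrays (-0.42, adjusted p = 0.126). With quantile normalization 3 members were called lower and 0 higher. Of 22 sensors of nucleic acids and their adaptors 0 were called, with 6 lower and 0 higher at an unadjusted p under 0.05. DHX58, which encodes the RNA sensor LGP2, was at 44.9 to 49.7 on the untreated arrays and 34.9 to 38.8 on the control siRNA arrays (-0.26, adjusted p = 0.369). Of 13 genes of the small RNA silencing machinery 0 were called, and DICER1 alone had an unadjusted p under 0.05, at 282, 312, 314 and 286 on the untreated arrays and 353, 409, 339.5 and 360.1 on the control siRNA arrays (0.28, adjusted p = 0.513). AGO2, the Argonaute protein that cuts siRNA targets, was at 456, 462, 418 and 432 on the untreated arrays and 476, 568, 482 and 492 on the control siRNA arrays (0.18, adjusted p = 0.77). A p that misses the threshold does not show that these levels were the same.

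Of 12 genes of MHC class I and processing and 14 of class II 0 were called by limma. Lower values at an unadjusted p under 0.05 were found for 6 and 5 of them, against 6.39% of all probe sets, with medians of -0.22 and -0.21. PSME1, an activator of the proteasome, was at 1124 to 1303 on the untreated arrays and 746 to 1003 on the control siRNA arrays (-0.44, adjusted p = 0.198), and HLA-DOB, which tunes peptide loading, at 443 to 518 on the untreated arrays and 284 to 362 on the control siRNA arrays (-0.53, adjusted p = 0.0573). Outside these lists and the interferon list, GBP4, a guanylate-binding protein of the interferon-induced family, was called lower, with 216, 204, 302 and 312 on the untreated arrays and 128, 143, 145 and 124 on the control siRNA arrays (log2 fold change -0.84, SE 0.125, adjusted p = 0.00607). Its untreated arrays fell into a dimmer pair, replicates 1 and 2, and a brighter pair, replicates 3 and 4. Its relative GBP2, named after its values were seen, was called higher, with 18.9 to 24 on the untreated arrays and 34.4 to 42.2 on the control siRNA arrays (log2 fold change 0.54, SE 0.0994, adjusted p = 0.024), and lost its call without untreated replicate 1, 2, 3 or 4 or control siRNA replicate 1, 2 or 3, with up to 0.106 (untreated replicate 1 left out). APOBEC3B, a cytidine deaminase named likewise, was at 408, 391, 365 and 391 on the untreated arrays and 597, 776, 556 and 671 on the control siRNA arrays (log2 fold change 0.71, SE 0.112, adjusted p = 0.00881), and its call remained in all 12 fits that left out 1 array.

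Other large decreases lay outside the lists or stood alone in them. RNVU1-8, a variant of the spliceosomal RNA U1, was at 56.9 to 79.7 on the untreated arrays and 28.2 to 41.8 on the control siRNA arrays (log2 fold change -0.73, SE 0.117, adjusted p = 0.0104), and as a multicopy gene it may share probes with its copies. ZNF788P, the 1 called of 482 zinc finger genes, against 0.216% of all probe sets called lower, was at 207, 176, 119.8 and 145 on the untreated arrays and 74.7, 87, 83.8 and 78.1 on the control siRNA arrays (log2 fold change -0.85, SE 0.131, adjusted p = 0.00718). MNS1, a protein of motile cilia, was at 52.2 to 71 on the untreated arrays and 24.1 to 39 on the control siRNA arrays (log2 fold change -0.65, SE 0.131, adjusted p = 0.0431), and its call ended without untreated replicate 1, 2, 3 or 4 or control siRNA replicate 1, 2, 3 or 4, with up to 0.143 (control siRNA replicate 4 left out). KCNMA1, the calcium-activated potassium channel BK, was named after its values were seen, at 484 to 675 on the untreated arrays and 333 to 408 on the control siRNA arrays (log2 fold change -0.61, SE 0.107, adjusted p = 0.0169), and its call ended without control siRNA replicate 1, 3 or 4 or untreated replicate 3 or 4, with up to 0.0779 (untreated replicate 4 left out). PSIP1, a chromatin reader named likewise, was at 994 to 1177 on the untreated arrays and 732 to 811 on the control siRNA arrays (log2 fold change -0.49, SE 0.0887, adjusted p = 0.0208), and its call ended without untreated replicate 1, 3 or 4 or control siRNA replicate 1, 3 or 4, with up to 0.086 (untreated replicate 4 left out). Median centring ended the calls of MNS1 (adjusted p = 0.0501), KCNMA1 (0.0607) and PSIP1 (0.0546).

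The large housekeeping lists held 0 calls by limma. Among 64 cytosolic ribosomal protein genes 1, among 81 oxidative phosphorylation subunits 1, among 31 proteasome subunits 2, and among 29 splicing factors 1 had an unadjusted p under 0.05, and the medians of these lists were -0.01, -0.05, -0.09 and 0.04. Limma also made 0 calls among 192 small nucleolar and Cajal body RNAs (5 at an unadjusted p under 0.05), 189 microRNA genes (9), 31 NF-kB pathway genes (4), 40 cytokines and chemokines (8), 26 genes of the BCL2 and caspase families (2) and 40 actin genes (3). Of 31 DNA repair genes 0 were called, and 9 had an unadjusted p under 0.05, all with lower values, against 6.39% of all probe sets. Below 0 lay 26 of them, against 68% of all probe sets, but 17 with median centring, where 14 lay above 0.

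Markers of other cell types were measured to see whether they moved. Of 19 T and NK cell markers, 16 myeloid markers and 9 erythroid and platelet markers 0 were called by limma, 3, 0 and 0 had an unadjusted p under 0.05, and the summed signals were 1679 to 1993 untreated and 1572 to 1799 after control siRNA, 1628 to 2006 and 1673 to 1895, and 516 to 625 and 508 to 606. No marker of these lists was at 0 on any array. Of 15 fibroblast markers ACTA2, smooth muscle actin, was called higher, against 0.171% of all probe sets, at 158, 164, 194 and 209.9 on the untreated arrays and 246, 264, 263 and 257 on the control siRNA arrays (log2 fold change 0.48, SE 0.0968, adjusted p = 0.0453), while the other 14 lay below 0 and the summed signal was 1105 to 1205 untreated and 1051 to 1207 after control siRNA. The call of ACTA2 ended in 10 of the 12 fits that left out 1 array, all but those without untreated replicate 4 or SOX11 siRNA replicate 3, with an adjusted p of up to 0.172 (untreated replicate 1 left out), and in the fit of the 8 arrays alone (0.0526). Of 12 epithelial markers 0 were called and KRT18, a keratin of simple epithelia, had 86.2 to 128 on the untreated arrays and 149 to 170.4 on the control siRNA arrays (0.56, adjusted p = 0.062). Their part in the other results was not tested.

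The calls of 70 genes described here depended on the test and the pseudocount. The methods' analysis of variance ended 41 of them in the 3-group form, with adjusted p of 0.0542 (H2AC11) to 0.188 (H2BC17), and 68 in the 2-group form, all but DHRS2 and GDF15. With log2(value + 1) 28 calls ended, with adjusted p of 0.0528 (SERPINA9) to 0.141 (MNS1), among them those of S100A10, S100A11, LGALS1, NQO1, BTLA, CD22, FDPS, SCD, FADS2, WEE1 and the histone genes H2BC17, H2BC21, H2AC15 and H2BC8. AHNAK, CD1C, DNTT, GBP4 and GATM were among those that the 3-group form ended and log2(value + 1) did not, with adjusted p of 0.086, 0.0784, 0.0601, 0.0704 and 0.0702 in the former.

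The SOX11 siRNA arrays give a second set of nucleofected cells, compared with the same 4 untreated arrays, so the 2 comparisons share those arrays and are set side by side without a measure of likeness. Against untreated cells, SOX11 siRNA had 268 probe sets called higher (0.805%) and 532 called lower (1.60%). GPNMB had log2 fold changes of 1.97 with control siRNA and 2.15 with SOX11 siRNA, AHNAK 1.30 and 1.46, HMOX1 1.03 and 1.24, and CHAC1 -1.98 and -2.07. LMNA had 0.90 and 1.20, CD1C 0.83 and 1.11, DNTT -1.18 and -1.51, and CR2 -0.87 and -0.63. BTLA had -0.66 and -0.40, where the second missed the threshold (adjusted p = 0.0821), as did that of H2BC21 (-0.50, adjusted p = 0.0579). The histone list had a median of -0.36 in both comparisons, with 6 and 16 of 57 genes called lower, and the membrane repair list had 9 and 12 of 30 called higher. The unfolded protein response list had 2 and 10 of 24 called higher, and the interferon list 0 and 4 of 37 called lower. The differences between the siRNAs were not tested here for these genes. SOX11, in contrast, was at 0.13 and -2.14.

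**Figure D5:**
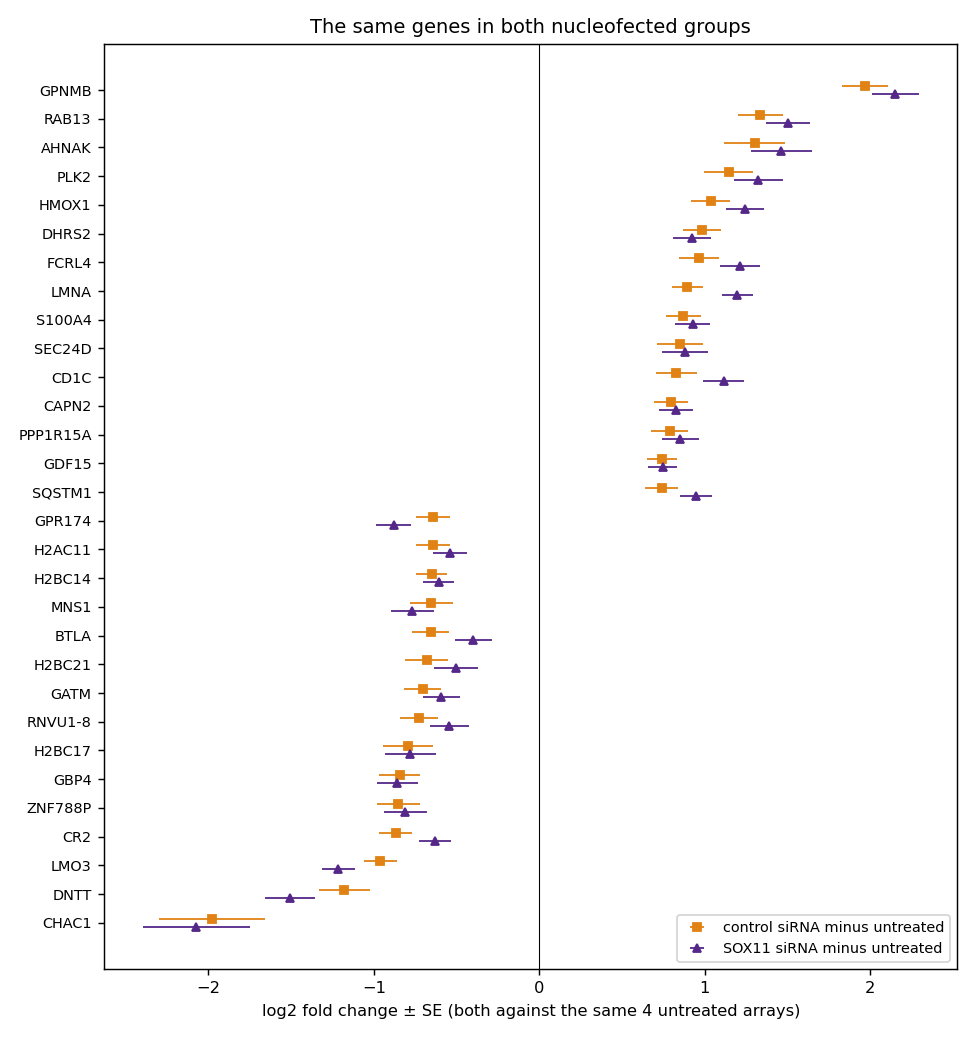
Log2 fold change with its SE (x axis) of the 15 genes with the largest increases and the 15 with the largest decreases after control siRNA, for control siRNA minus untreated (orange squares) and for SOX11 siRNA minus untreated (purple triangles); both use the same 4 untreated arrays. The 30 genes were chosen for their control siRNA values, and GPNMB lies at 1.97 and 2.15 in the 2 comparisons.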

How the data were processed

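Total RNA of Granta 519 cells was hybridized to Affymetrix Human Gene ST arrays. The intensity values deposited by the authors are linear PLIER signals per probe set, made in Affymetrix Expression Console 1.1, after background correction by probes of like GC content and scaling of arrays to a common median. The deposited signals do not share a median, which ran from 69.2 (SOX11 siRNA replicate 3) to 91.8 (SOX11 siRNA replicate 4) over the 12 arrays. The reason was not tested. The study's own statistics used analysis of variance on RMA values; the test was an alternative here, on the PLIER signals, and the RMA values were not used, nor were deposited fold-change scores, their p-values and 6 columns of group means. The sources used here do not give the array's genome build, and promoter coordinates are RefSeq's for GRCh38.p14.

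The log2(value + 16) of 33297 probe sets, unfiltered, was fitted with limma 3.58.1 (lmFit, eBayes) in R 4.3.3, all 3 groups together, and control siRNA minus untreated was adjusted over all probe sets by Benjamini-Hochberg. An adjusted p under 0.05 made a call. Of the probe sets 19460 list 1 symbol, 1754 several and 12083 none; current symbols were found by gene ID for 19429. Gene lists took the probe set of highest mean for each gene and were described by counts and medians, with no set test. The comparison and the gene lists were chosen with earlier results of these data known, although labels alone decided which arrays belong to it. Named are the 15 largest changes in each direction among calls with 1 symbol and groups that do not overlap, all called list members, the 4 or fewer list members of smallest p, and SOX11, CCND1, SOX4 and B cell markers; exceptions are marked. Alternatives were 2 other scalings, another pseudocount, 2 filters, the 8 arrays alone, analysis of variance, another prior, a replicate block, array weights and leaving out each array. The method was tested on simulated data.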

Additional observations from a re-analysis of the deposited data

Results flagged for a closer look

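Of 216 groups of 4 arrays tested for the genes named in the text, 12 held a highest or lowest array far from the other 3 (5.56%), and chance alone gives about 1 in 20. The values are signals. Among called genes, CAPN2 on control siRNA replicate 1 was at 205.6 against 245.3 to 249.3 on the other 3, HYOU1 on control siRNA replicate 2 at 1813 against 1441 to 1487, BTLA on control siRNA replicate 2 at 133.9 against 98.7 to 101, and FADS2 on control siRNA replicate 2 at 1069 against 946 to 963. H2BC17 was apart in both groups, at 210.4 on untreated replicate 3 against 175 to 178 and at 68.73 on control siRNA replicate 4 against 108 to 115. Among genes not called, CCND1 was at 3223 on untreated replicate 2 against 3506 to 3567 and at 2935 on control siRNA replicate 4 against 3373 to 3443, CD79B at 500.8 on control siRNA replicate 4 against 627 to 655, and PAX5 at 939.4 on control siRNA replicate 2 against 820 to 835. IFIT1 was at 108 on untreated replicate 1 against 88.4 to 89.0, and NEU1 at 420.5 on control siRNA replicate 4 against 578 to 601. Of these 12, control siRNA replicates 2 and 4 held 4 each.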

How the results depend on the processing

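The number of probe sets called depended on the processing, and the cause was not tested where none is given. Against 57 higher and 72 lower calls, there were 352 and 292 with quantile normalization, 126 and 56 with median centring, 82 and 135 in a fit of the 8 arrays compared alone, 185 and 332 with array weights, and 33 and 29 with log2(value + 1). With fewer probe sets tested there were 90 and 158 (without dim probe sets) and 97 and 183 (probe sets with 1 symbol). The methods' analysis of variance, without a shared prior for the spread, called 23 and 17 in the 3-group form and 2 and 3 in the 2-group form. A trend and robust prior gave 66 and 97. Without 1 array the counts were 33 to 90 higher and 29 to 142 lower, lowest for higher calls without control siRNA replicate 2, lowest for lower calls without control siRNA replicate 4, and highest for both without SOX11 siRNA replicate 3. At an FDR of 0.002 and 1.5-fold, where 9 were higher and 4 lower, the counts were 27 and 11 with quantile normalization, 24 and 4 with median centring, 32 and 21 with array weights, 33 and 21 without dim probe sets, 33 and 19 with 1 symbol, 16 and 6 under the trend and robust prior, 1 and 0 with log2(value + 1), and 0 and 0 by either analysis of variance. Without 1 array they were 1 to 8 and 0 to 5.

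With the replicate number as a block, 49 probe sets were called higher and 72 lower (3 and 4 at the stricter threshold), and 44 and 51 of the main calls remained; the replicate block with quantile normalization gave 340 and 288 (11 and 6). Same-numbered arrays of the 2 groups did not deviate together in all pairs (r = 0.289, -0.250, 0.050 and 0.045), so the numbers were not taken as pairs. Of 70 called genes of the text the block ended 18 calls, HYOU1 among them (adjusted p = 0.0668), and the unfolded protein response list then had 1 higher call.

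For the named genes, 3 differences that were not called changed sign with median centring, to 0.0073 for CCND1, 0.0214 for MS4A1 and 0.0413 for PAX5. That of CD79B, 0.0019 in the main analysis, ran from -0.0366 to 0.0892 over the fits without 1 array and was below 0 in 6 of them. No called gene of the text changed sign in any alternative. Across the gene lists the median moved by more than the spread between the control siRNA arrays in 1 of 684 comparisons that left out 1 array and in 23 of 684 others. That spread includes differences in scale between arrays, so it does not show that a list kept its direction. With median centring the oxidative phosphorylation genes below 0 went from 66 to 28, and the ribosomal protein genes from 39 to 7. Counts of called list members moved in 196 comparisons of the other settings and not in 1172. For arrays the number per group limits the precision, and no read depth applies.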
